A study of Homo sapiens with 9 samples.

Results

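Genes of histone-modifying enzymes and chromatin remodellers were followed in A549 cells that had been kept for 5 days without attachment to a plate. The set was taken from gene symbols alone and comprised every probe set of the array whose platform symbol began with KDM, KMT, SETD, HDAC, KAT and a digit, CHD and a digit, ARID, BRD and a digit, or SMARC. It held 78 of 53617 probe sets, which stood for 76 of the 14884 named genes, and no probe set had a platform symbol of the SMARC kind here. Of the 78 probe sets, 4 read below the array median on too many arrays to be tested, and 73 member genes were tested among 10916 genes in all. A549 is an established human line from a lung adenocarcinoma that grows attached to plastic. The 3 conditions were a low-attachment plate in normal medium (called low attachment below), the same kind of plate with FP001 added to the medium at 0.015% (w/v) (called FP001), and an ordinary attachment plate in normal medium (called attachment). Medium without FP001 was supplemented with water in its place. The labels do not say what FP001 consists of. Each condition had 3 arrays. The labels do not call these separate cultures, so the p-values reflect the spread among the arrays alone, part of which may be technical.

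Chromatin enzymes set how tightly DNA is packed around histones. Writers add acetyl or methyl groups to histone tails (the KAT, KMT and SETD families), erasers remove them (HDAC and KDM), and readers such as the BRD proteins bind the marked tails. Remodellers use ATP to slide or evict nucleosomes. The CHD proteins belong to these, while several ARID proteins are DNA-binding subunits of remodelling or deacetylase complexes. In lung adenocarcinoma, genes of this kind are recurrently mutated, and A549 itself is known for a defect in the SWI/SNF remodelling complex.

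Attachment replicate 1 was left out by the rule that defined the set. Its highest rank correlation with any other array was -0.00191, whereas the other 8 arrays correlated with each other at 0.961 to 0.985. All values below therefore rest on 2 attachment arrays and on 3 arrays of each low-attachment group, and this small number limits their precision. The median intensity of those 8 arrays lay between 23.3 and 24.1. All 6 epithelial and A549 markers that were named on the array read above the array median on all 8 arrays. Their summed intensities were 4779 to 5085 on low attachment, 5527 to 6052 with FP001 and 4517 to 4692 on attachment, and KRT18 gave most of each sum. The single markers differed in direction from attachment. KRT19 rose on low attachment and with FP001 (log2 differences 1.03 and 1.55), and KRT18 rose with FP001 (0.30). KRT7 fell on low attachment (-0.54) and EPCAM fell with FP001 (-0.53). Of 3 fibroblast markers named on the array, DCN stayed under 4 on every array, THY1 fell in both comparisons with attachment (adjusted p = 0.029 and 0.0115), and LUM was not called. LUM varied most between arrays, with 247, 24.0 and 41.5 on low attachment and 437, 79.0 and 103 with FP001, against 93.3 and 28.2 on attachment. Of the proliferation markers, 1 of 10 rose and 1 fell on low attachment, and the summed intensities were 5418 to 7242 on low attachment, 6762 to 8164 with FP001 and 7379 to 8233 on attachment. Of 3 leukocyte markers named on the array, LYZ was called as higher in both comparisons with attachment and CD68 with FP001. LYZ read 18.6 and 17.5 on attachment, below the array median, so it entered the test only through the arrays where it was high. The summed intensities of the 3 markers were 557 to 789 on low attachment, 622 to 954 with FP001 and 424 to 503 on attachment. Any part of proliferation or cell type in the results below was not tested.

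Low attachment was first set against attachment, both in normal medium, which addresses the effect of the plate. On low attachment 2 members rose and 4 fell, together 6 of 73 (8.22%), where 10.1% of all genes tested were called in either direction, 4.31% as higher and 5.76% as lower. With quantile normalization 2 rose and 3 fell, with median centring 1 rose and 4 fell, and the share of higher among all called genes was 54.4% with quantile normalization and 42.8% without. The falls were the histone demethylases KDM5B and KDM1A and the remodellers CHD7 and CHD2, and the rises were the remodeller CHD1L and the acetyltransferase KAT5. The same 6 genes were called in the same direction with FP001, a comparison that used the same attachment arrays. The median log2 difference of the 73 members was -0.07, against 0.01 over all genes tested. An unadjusted p under 0.05 was reached by 17 of 73 members, beside 26.4% of all genes tested. Low-attachment arrays lay entirely above attachment in 12 members (16.4%) and entirely below in 23 (31.5%), in all 35 of 73 members. The shares over all genes tested were 22.2% above, 23.4% below and 45.6% in either direction.

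KDM5B, which removes methyl groups from histone marks of active promoters, read 263, 280.3 and 265 on low attachment and 178, 206 and 239.6 with FP001, against 433 and 366 on attachment. All low-attachment arrays lay below both attachment arrays, and the FP001 arrays lay lowest of all. In RNA from whole cultures, fewer cells of a type and less RNA per cell cannot be told apart. It fell 1.48-fold on low attachment (log2 fold change -0.56 ± 0.13, standard error from limma, adjusted p = 0.0191). KDM1A, a flavin-dependent demethylase that works with the CoREST corepressor, read 450.3, 501 and 497 on low attachment and 426, 468 and 445 with FP001, against 594 and 598 on attachment. Its fall on low attachment was smaller, 1.24-fold (-0.31 ± 0.08, adjusted p = 0.044), and the call was lost in 13 of 20 alternative settings.

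CHD2, a chromodomain helicase whose loss causes a childhood epilepsy in humans, read 166, 189 and 164 on low attachment and 128, 148 and 139 with FP001, against 275 and 226 on attachment. The 3 groups did not overlap, and the low-attachment arrays fell 1.44-fold below attachment (-0.53 ± 0.11, adjusted p = 0.017). CHD7, the helicase mutated in CHARGE syndrome, read 45.4, 56.7 and 48.8 on low attachment and 43.8, 58.2 and 51.1 with FP001, against 77.0 and 84.1 on attachment. It had the largest fall of the tested members on low attachment, 1.61-fold (-0.69 ± 0.14, adjusted p = 0.0131), and its low-attachment and FP001 values overlapped throughout.

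CHD1L, a remodeller that is activated by poly-ADP-ribose and acts at DNA damage, read 248, 255 and 256 on low attachment and 248, 223 and 254 with FP001, against 180.1 and 199 on attachment. It rose 1.34-fold on low attachment (0.42 ± 0.09, adjusted p = 0.0185). KAT5, the acetyltransferase of the TIP60 complex, read 123, 118 and 122 on low attachment and 132, 117 and 119.5 with FP001, against 97.1 and 94.2 on attachment. It rose 1.27-fold (0.34 ± 0.09, adjusted p = 0.0411), a call lost in 13 of 20 alternative settings, among them centring each array on its median. In both genes every array without attachment read above both attachment arrays.

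**Figure D1:**
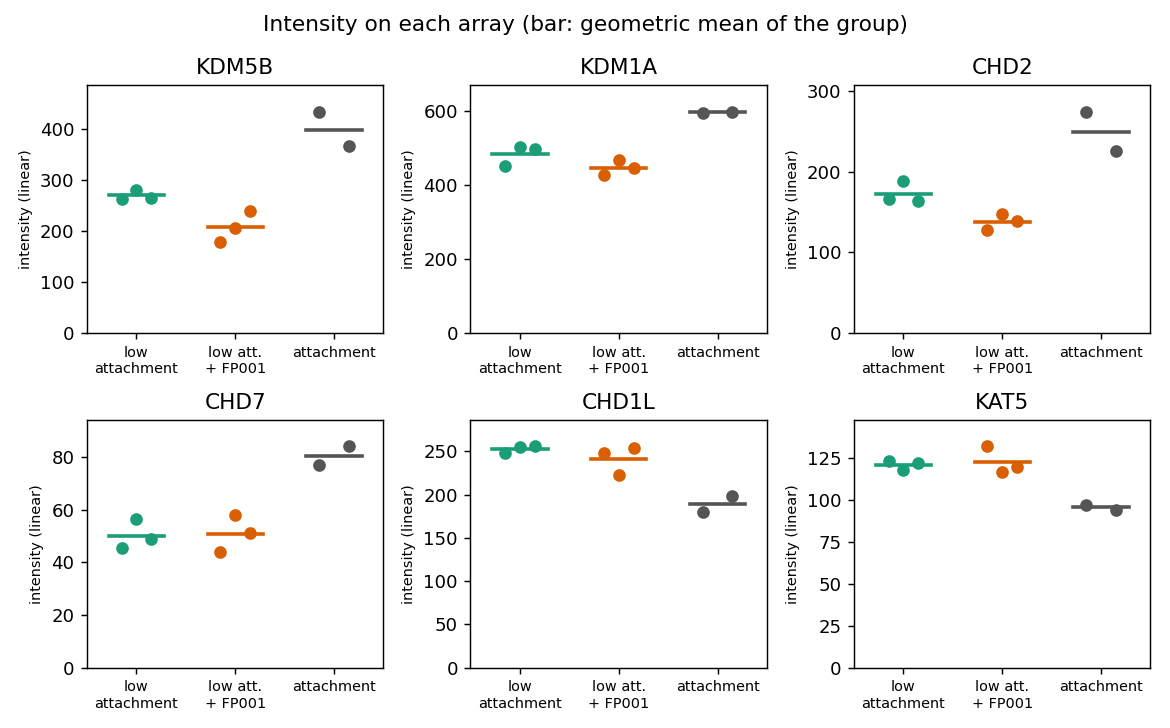
Linear intensity on each array (points) of the 6 members called in both comparisons with attachment, for low attachment (n = 3), low attachment with FP001 (n = 3) and attachment (n = 2), with the geometric mean of each group as a bar. KDM5B, KDM1A, CHD2 and CHD7 lie below the attachment arrays on all 6 low-attachment arrays, and CHD1L and KAT5 lie above them.

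The number of calls depended on single arrays, over all genes tested as well as in the members. On low attachment 10.1% of all genes tested were called with all 8 arrays. The share was 6.62% without low-attachment replicate 3 (1.37% of members) and 6.79% without low-attachment replicate 2 (4.11% of members). Without attachment replicate 2 no member was called on low attachment, where 3.33% of all genes tested were, without low-attachment replicate 3 only CHD7 was, and without low-attachment replicate 2 the calls were 3, KDM5B, CHD2 and CHD7. With attachment replicate 3 alone as the attachment sample, the log2 difference was -0.44 for KDM5B, -0.39 for CHD2 and -0.75 for CHD7. With attachment replicate 2 alone, that of CHD7 was -0.62. The low-attachment calls of KDM5B, CHD2 and CHD7 were each lost in 3 of 20 alternative settings. For CHD7 these included both fits with a single attachment array.

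The start regions of 5 of these 6 genes are given below so that the regulatory sequence can be seen beside the values. They cover 250 bases before and 50 after the gene's start in RefSeq, on build GRCh38.p14, 5′ to 3′ on the gene's strand. Capitals mark matches, on either strand, to the AP-1 motif TGANTCA, the cyclic AMP element TGACGTCA, the core of the hypoxia response element ACGTG and the EGR motif GCGNGGGCG. They are 4 widely known elements, chosen with the results known. The KDM5B region was chr1:202808372-202808671 on the minus strand, the KDM1A region chr1:23019218-23019517 on the plus strand and the CHD2 region chr15:92900074-92900373 on the plus strand. The CHD1L region was chr1:147242890-147243189 and the KAT5 region chr11:65712002-65712301, both on the plus strand.
KDM5B: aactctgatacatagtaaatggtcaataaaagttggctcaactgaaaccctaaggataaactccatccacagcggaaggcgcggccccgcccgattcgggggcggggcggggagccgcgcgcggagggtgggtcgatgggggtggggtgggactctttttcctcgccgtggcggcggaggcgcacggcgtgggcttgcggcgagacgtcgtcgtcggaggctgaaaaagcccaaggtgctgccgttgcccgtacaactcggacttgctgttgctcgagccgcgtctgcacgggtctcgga
KDM1A: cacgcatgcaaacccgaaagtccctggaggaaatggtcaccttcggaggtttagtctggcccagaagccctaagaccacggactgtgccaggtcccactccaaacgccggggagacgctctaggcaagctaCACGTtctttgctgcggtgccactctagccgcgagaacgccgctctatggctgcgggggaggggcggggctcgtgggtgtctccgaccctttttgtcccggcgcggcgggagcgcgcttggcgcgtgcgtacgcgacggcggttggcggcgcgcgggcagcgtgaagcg
CHD2: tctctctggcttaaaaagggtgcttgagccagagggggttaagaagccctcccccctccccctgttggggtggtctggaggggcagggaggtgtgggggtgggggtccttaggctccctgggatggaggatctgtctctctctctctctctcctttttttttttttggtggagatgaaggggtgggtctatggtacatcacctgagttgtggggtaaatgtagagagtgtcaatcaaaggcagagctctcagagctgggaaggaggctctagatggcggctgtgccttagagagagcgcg
CHD1L: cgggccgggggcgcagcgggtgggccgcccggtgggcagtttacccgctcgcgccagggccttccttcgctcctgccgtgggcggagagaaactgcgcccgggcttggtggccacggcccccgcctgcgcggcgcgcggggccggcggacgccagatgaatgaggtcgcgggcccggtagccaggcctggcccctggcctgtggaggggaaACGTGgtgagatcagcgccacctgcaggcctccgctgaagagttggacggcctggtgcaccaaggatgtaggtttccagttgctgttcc
KAT5: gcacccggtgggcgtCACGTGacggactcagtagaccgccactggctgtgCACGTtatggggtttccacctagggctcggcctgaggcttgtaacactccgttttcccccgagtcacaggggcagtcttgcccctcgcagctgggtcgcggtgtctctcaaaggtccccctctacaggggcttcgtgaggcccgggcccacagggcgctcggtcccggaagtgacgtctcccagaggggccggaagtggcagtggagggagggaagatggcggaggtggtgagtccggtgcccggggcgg
KDM1A and CHD1L each held 1 match to the ACGTG core. KAT5 held 3, a pair of them being the 2 strands of the palindrome CACGTG, and KDM5B and CHD2 held no match to any of the 4 motifs. Of the 67 members with a start region in the table, 17 (25.4%) held the ACGTG core, 3 (4.48%) the AP-1 motif, 12 (17.9%) the EGR motif and 0 the cyclic AMP element. Over all 35116 start regions the shares were 21.4%, 7.71%, 9.43% and 1.85%. Such a match is a description of letters and says nothing about binding.

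The second comparison set FP001 against attachment, so that plate and medium differed together. With FP001, 3 members rose and 16 fell, in all 19 of 73 (26.0%), where 19.5% of all genes tested were called, 8.08% as higher and 11.4% as lower. The falls made up 21.9% of the members. With quantile normalization 5 members rose and 9 fell, in all 19.2% of members beside 20.2% of all genes tested, and 56.2% of all called genes were higher, against 41.5% without it. The 16 falls without quantile normalization were 6 demethylases of the KDM family, 4 methyltransferases of the KMT and SETD families, 3 CHD remodellers, 2 ARID genes and 1 KAT gene. The members' median log2 difference was -0.19, against 0.02 over all genes tested. Both attachment arrays lay outside the FP001 range in all 19 called members, and the groups did not overlap in 52 of 73 members, against 52.8% of all genes tested. FP001 read below attachment in 42 of those 52 (57.5% of the 73 members) and above it in 10 (13.7%). Over all genes tested 26.5% lay above and 26.2% below. An unadjusted p under 0.05 was reached by 35 of 73 members, beside 35.1% of all genes tested.

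Among the erasers of methylation, 6 of 20 tested KDM members fell and 0 rose, with a family median of -0.24. KDM5B had the largest fall of all members, 1.93-fold (-0.95 ± 0.13, adjusted p = 0.00104), with the intensities given above. KDM3A, a demethylase of a repressive histone mark and a known target of hypoxia signalling, read 80.3, 119 and 114 with FP001, against 170.0 and 154 on attachment, and fell 1.57-fold (-0.65 ± 0.18, adjusted p = 0.0313). On low attachment it read 95, 133 and 125, and the difference from attachment did not pass the test (-0.47 ± 0.18, adjusted p = 0.129).

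KDM7A, which also removes repressive methyl marks, read 32.7, 31.7 and 34.1 with FP001, against 59.0 and 42.9 on attachment, and fell 1.53-fold (-0.62 ± 0.16, adjusted p = 0.024). In contrast to KDM5B, its low-attachment arrays in normal medium (57.5, 54.6 and 43.2) lay between the 2 attachment values. KDM1A fell 1.34-fold with FP001 (-0.42 ± 0.08, adjusted p = 0.00776). KDM5A, the close relative of KDM5B, read 170.0, 203 and 210.1 with FP001, against 259 and 241 on attachment, and fell 1.29-fold (adjusted p = 0.0387). KDM6B, which removes the Polycomb mark, read 86.1, 83.9 and 83.5 with FP001, against 105 and 102 on attachment. It fell 1.22-fold, just inside the threshold (adjusted p = 0.0498). The calls of KDM5A and KDM6B were both lost with quantile normalization, with every probe set tested on its own and without FP001 replicate 1.

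The other 14 KDM members were not called with FP001. KDM2A, which acts at CpG islands, read 221, 238 and 268 with FP001, against 251 and 241 on attachment (log2 difference -0.03, 95% interval -0.24 to 0.19). KDM1B, the relative of KDM1A, lay just outside the threshold with 84.4, 99.7 and 102 with FP001, against 129 and 114 on attachment (-0.35 ± 0.12, adjusted p = 0.0567). KDM2B, KDM3B, KDM4A, KDM4B, KDM4C, KDM4D, KDM5C, KDM5D, KDM6A, KDM8 and the non-coding KDM4A-AS1 and KDM7A-DT completed the tested family.

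**Figure D2:**
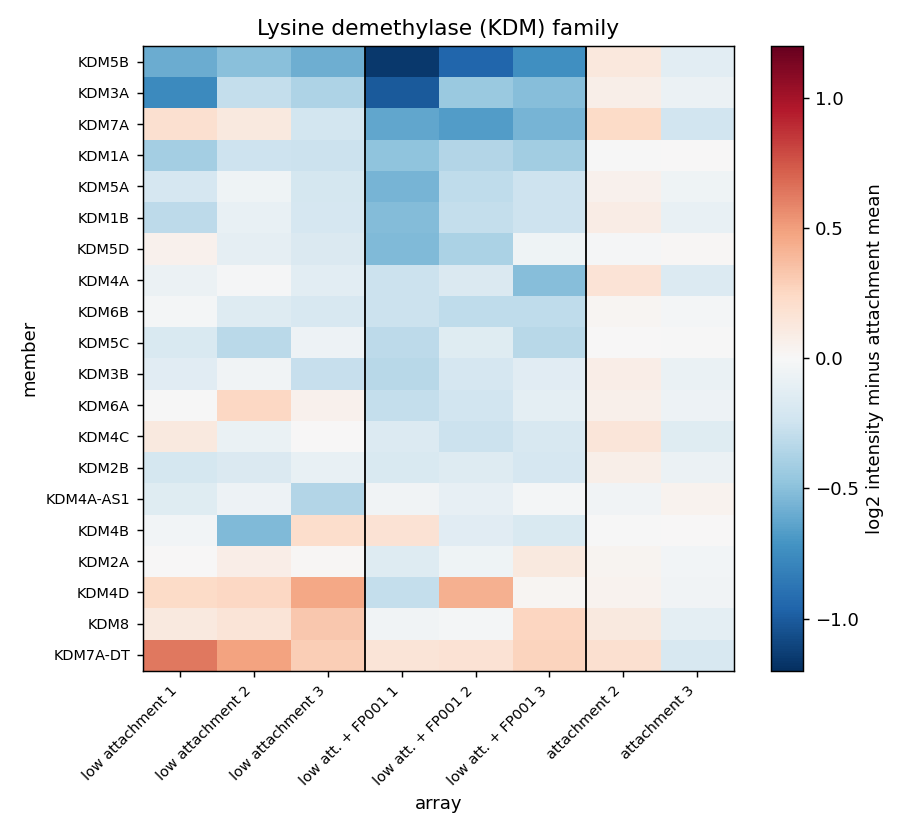
Log2 intensity of the 20 tested members with a KDM symbol (rows) on each of the 8 arrays (columns), minus the mean of the 2 attachment arrays, with blue for lower and red for higher. KDM5B and KDM3A are blue on all 6 low-attachment arrays, and KDM7A is blue on low-attachment replicate 3, the 3 FP001 arrays and attachment replicate 3.

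Among the writers of methylation, KMT2B and KMT2D, methyltransferases of the MLL family that mark promoters and enhancers, both fell with FP001. KMT2D read 79.9, 115 and 114 with FP001, against 163 and 139 on attachment, and fell 1.48-fold (-0.57 ± 0.16, adjusted p = 0.0363). KMT2B read 110.0, 125 and 134 with FP001, against 169 and 151 on attachment, and fell 1.31-fold (adjusted p = 0.0459). FP001 replicate 1 was the lowest array for both. SETD2, which methylates histones along transcribed genes, read 92.1, 108 and 114 with FP001, against 153 and 131 on attachment, and fell 1.36-fold (-0.44 ± 0.12, adjusted p = 0.0276). SETD5, a SET-domain protein of chromatin, read 137, 182 and 193 with FP001, against 233 and 239 on attachment, and fell 1.40-fold (-0.48 ± 0.14, adjusted p = 0.0394). Of 20 alternative settings, the call was lost in 11 for KMT2B, in 9 for SETD5, in 6 for KMT2D and in 4 for SETD2. Quantile normalization was among them for KMT2B (adjusted p = 0.081), SETD5 (0.0605) and KMT2D (0.0548).

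The remaining writers of methylation had smaller differences. KMT2C, KMT5A, KMT5B, KMT5C, SETD1A, SETD3, SETD6, SETD7, SETD9 and the antisense KMT2E-AS1 were not called in any comparison with the settings used throughout. SETD7 read 189.7, 211 and 215 with FP001, against 167 and 183 on attachment (0.23 ± 0.09, adjusted p = 0.111), and it was called with quantile normalization. KMT2C read 266, 316 and 299 with FP001, against 367 and 286 on attachment, and its groups overlapped (-0.15 ± 0.15, adjusted p = 0.512). The family medians with FP001 were -0.01 for KMT and 0.10 for SETD, so 2 falls in each stood beside members with values near 0.

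Of 7 tested KAT members 1 rose and 1 fell with FP001. KAT5 rose 1.28-fold (0.36 ± 0.09, adjusted p = 0.0227). KAT7, an acetyltransferase that helps to license replication origins, read 176, 186 and 192 with FP001, against 242 and 216 on attachment. It fell 1.24-fold (-0.31 ± 0.09, adjusted p = 0.0374). This call was lost with quantile normalization, with every probe set tested on its own and without FP001 replicate 1. KAT2A, KAT6B and KAT8 had log2 differences of -0.34, -0.33 and -0.27 that did not pass (adjusted p = 0.063, 0.0899 and 0.0596). KAT2A and KAT8 passed in a fit blocked by replicate number. KAT14 and KAT2B differed from attachment by less than 0.05 on the log2 scale.

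Of 10 CHD remodellers 1 rose and 3 fell with FP001. CHD2 fell 1.80-fold (-0.85 ± 0.11, adjusted p = 0.0011) and CHD7 1.59-fold (-0.67 ± 0.14, adjusted p = 0.00961). CHD9 read 240.3, 285 and 288 with FP001, against 401 and 338 on attachment, and fell 1.36-fold (-0.45 ± 0.11, adjusted p = 0.0223). CHD1L rose 1.28-fold (0.35 ± 0.09, adjusted p = 0.0249). CHD3 and CHD4, the ATPases of the NuRD complex, were not called in any comparison. CHD4 read 313, 395 and 409 with FP001, against 439 and 414 on attachment (-0.21 ± 0.13, adjusted p = 0.279). CHD1, CHD5, CHD6 and CHD8 were also not called.

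Of 8 tested ARID members 1 rose and 2 fell with FP001. ARID5B, a DNA-binding partner of a histone demethylase, read 88.9, 70.9 and 78.1 with FP001, against 178 and 107 on attachment, and fell 1.75-fold (-0.80 ± 0.19, adjusted p = 0.0159). The 2 attachment arrays differed more than in any member above. The log2 difference was -1.17 without attachment replicate 3 and -0.44 without replicate 2, each fit leaving 1 attachment array. ARID4B, a subunit of the SIN3 deacetylase complex, read 205, 211 and 190.3 with FP001, against 261 and 239.9 on attachment. It fell 1.24-fold (adjusted p = 0.0392). Its call was lost with quantile normalization, with every probe set tested on its own and without FP001 replicate 1. ARID3C rose 1.30-fold (adjusted p = 0.0387) at low intensities, 43.0, 41.3 and 39.0 with FP001, against 32.3 and 30.9 on attachment, and the call was lost in 11 of 20 alternative settings. ARID1A and ARID1B, the DNA-binding subunits of SWI/SNF complexes, were not called. ARID1A read 84.3, 105 and 103 with FP001, against 129.6 and 116 on attachment (-0.34 ± 0.15, adjusted p = 0.13), and ARID1B had a log2 difference of -0.19 ± 0.10. ARID3A, ARID3B and ARID5A completed the tested members.

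**Figure D3:**
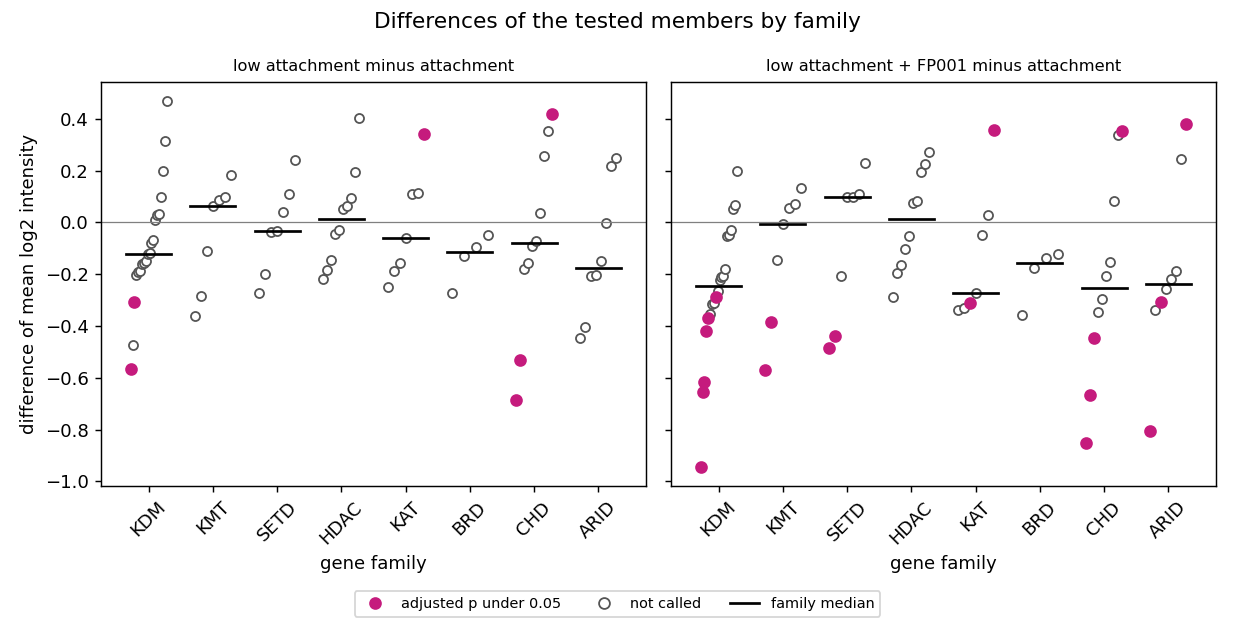
Difference of mean log2 intensity of each of the 73 tested members, by family, for low attachment minus attachment (left) and FP001 minus attachment (right), with filled points at an adjusted p under 0.05 and a bar at the family median. On the left 6 points are filled and on the right 19, of which 16 lie below 0, with none in the HDAC and BRD families.

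Neither the erasers nor the readers of acetylation held a member that passed the test with the settings used throughout. In the HDAC family 0 of 10 tested members did so in any comparison, with 1 below an unadjusted p of 0.05 on low attachment and 2 with FP001 against attachment, and family medians of 0.01 in both. HDAC1, a catalytic subunit of several corepressor complexes, read 416, 391 and 423 on low attachment and 411, 399 and 404 with FP001, against 394 and 375 on attachment. Its log2 difference was 0.09 on low attachment (95% interval -0.08 to 0.27) and 0.07 with FP001 (-0.10 to 0.25). HDAC3, the deacetylase of the NCoR complex, had the smallest adjusted p of the family with FP001, at 237, 210.4 and 248 with FP001, against 196 and 187 on attachment (0.27 ± 0.10, adjusted p = 0.0835). With quantile normalization it passed (0.36, adjusted p = 0.0238). HDAC5, a deacetylase that shuttles between nucleus and cytoplasm, read 115, 99.7 and 101 on low attachment, against 84.9 and 74.3 on attachment (0.40 ± 0.15, adjusted p = 0.112), and it was called when FP001 replicate 1 was left out.

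HDAC2 and HDAC4 had 2 probe sets each. The tested HDAC2 probe set read 54.3 to 64.1 on low attachment and 55.2 to 60.5 with FP001, against 64.9 to 65.9 on attachment, while the other read under 7 everywhere and was not tested. The tested HDAC4 probe set had log2 differences of -0.03 on low attachment and 0.08 with FP001, and the other, dimmer one 0.00 and 0.17. The first was not called and the second was not tested. HDAC6, HDAC7, HDAC8, HDAC10 and HDAC11 lay between -0.29 and 0.23 on the log2 scale in both comparisons with attachment.

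Of the readers, BRD2 and BRD3, which bind acetylated histones at transcribed genes, had log2 differences of -0.12 ± 0.10 and -0.14 ± 0.11 with FP001 against attachment. BRD7, a subunit of a SWI/SNF complex, read 295, 297 and 301 with FP001, against 354 and 319 on attachment (-0.18 ± 0.09, adjusted p = 0.171). BRD8, a subunit of the TIP60 complex, read 43.6, 48.6 and 48.1 with FP001, against 56.8 and 63.2 on attachment, and just missed the threshold (-0.36 ± 0.12, adjusted p = 0.052). It passed with median centring (adjusted p = 0.0423), with genes above the median on all 8 arrays (0.0482) and without the variance trend (0.0483).

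The calls with FP001 also rested on single arrays. Without attachment replicate 2 only KDM5B and CHD2 stayed called (2.74% of members, beside 6.08% of all genes tested), and without attachment replicate 3 there were 8 calls (11.0% beside 10.2%). Without FP001 replicate 1 there were 5 calls (KDM5B, KDM1A, CHD2, CHD7 and ARID5B), which is 6.85% of members, where 11.8% of all genes tested were then called. Without FP001 replicate 2 there were 10 (13.7% beside 12.3%), and without low-attachment replicate 3, which enters only the shared spread, 12 (16.4% beside 16.3%). The share of members called was thus above that of all genes tested in the main fit, and close to it or below it in the fits just given and with quantile normalization. In other settings it stayed above. These were the fits without FP001 replicate 3 (26.0% beside 18.2%), without low-attachment replicate 1 (26.0% beside 21.2%) and without low-attachment replicate 2 (20.5% beside 17.1%). Median centring (27.4% beside 18.6%) and the fit blocked by replicate number (28.8% beside 21.7%) were others. KDM7A had a log2 difference of -0.39 without attachment replicate 2 (adjusted p = 0.214). In every fit that left out 1 array KDM5B and CHD2 were lower with FP001 than on attachment. The log2 differences lay between -1.07 and -0.82 for KDM5B and between -0.99 and -0.71 for CHD2.

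In this set of genes FP001 replicate 1 and attachment replicate 2 lay furthest out, on opposite sides. FP001 replicate 1 read lowest of the 8 arrays in 33 of 73 members (45.2%), against 16.9% of all genes tested. It was also lowest in 12 of the 16 members that fell with FP001. Attachment replicate 2 read highest in 27 of 73 members (37.0%), against 21.4% of all genes tested. On the log2 scale the median deviation of the members from their own mean over the 8 arrays was -0.13 on FP001 replicate 1. It was -0.05 on each of FP001 replicates 2 and 3. It was 0.14 and 0.06 on attachment replicates 2 and 3 and between 0.00 and 0.06 on the low-attachment arrays. Over all genes tested the same medians lay within 0.01 of 0 on every array. Without FP001 replicate 1 the members' median difference from attachment was -0.15, against -0.19 with it.

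**Figure D4:**
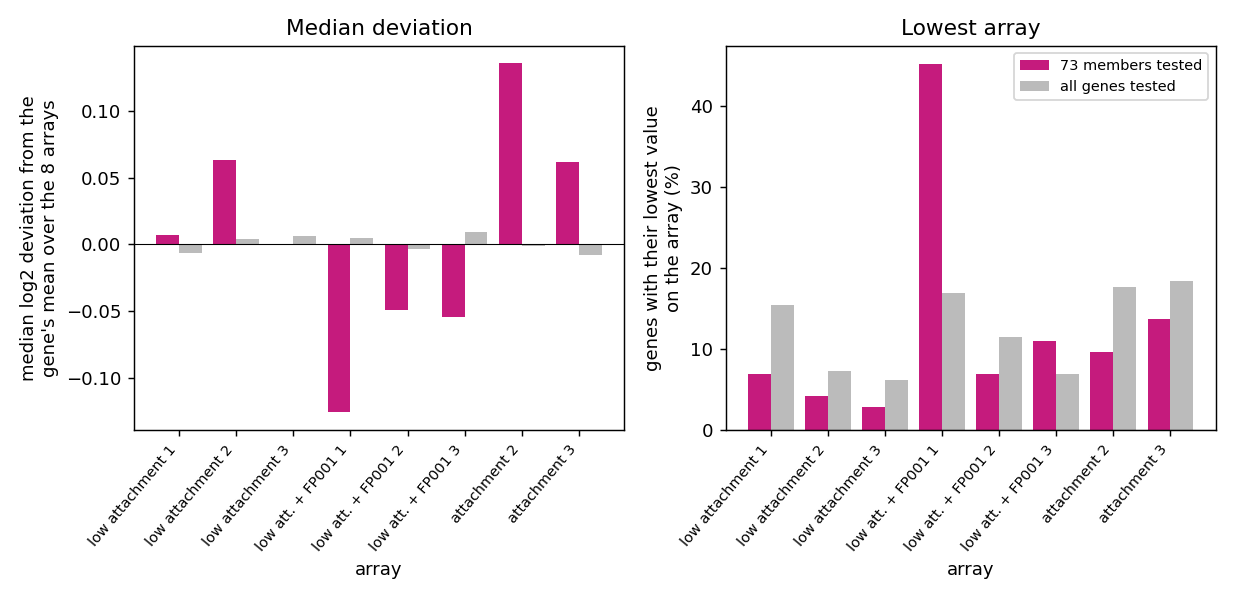
For each of the 8 arrays, the median log2 deviation of a gene from its own mean over the 8 arrays (left) and the share of genes with their lowest value on that array (right), for the 73 tested members and for all 10916 genes tested. The members are lowest on FP001 replicate 1, with 45.2% of them having their minimum there, and highest on attachment replicate 2.

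The third comparison asked what FP001 changed on low-attachment plates. The main limma fit took no account of replicate numbers. It called no member, where 0.110% of all genes tested were called (0.0366% as higher and 0.0733% as lower). An unadjusted p under 0.05 was reached by 8 of 73 members, beside 11.6% of all genes tested. The direction was nevertheless uneven. Of 73 members, 57 read lower with FP001 than in normal medium and 16 higher, with a median log2 difference of -0.10, against 0.01 over all genes tested. FP001 arrays lay entirely below the low-attachment arrays in 15 members (20.5%) and entirely above in 0. Over all genes tested 9.01% lay below and 8.48% above. Without FP001 replicate 1 the median was -0.06.

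KDM7A had the smallest adjusted p of the members in this comparison. It read 32.7, 31.7 and 34.1 with FP001, against 57.5, 54.6 and 43.2 on low attachment, so the groups did not overlap, and the difference was 1.56-fold (-0.65 ± 0.14, 95% interval -0.96 to -0.33, adjusted p = 0.157). In a fit blocked by replicate number, which compares same-numbered arrays with each other, KDM7A fell with FP001 (adjusted p = 0.0399). It was the one member called between FP001 and low attachment in that fit, 1.37% of members, beside 142 genes or 1.30% of all genes tested. KDM5B read 178, 206 and 239.6 with FP001, against 263, 280.3 and 265 on low attachment (-0.38 ± 0.11, 95% interval -0.63 to -0.13, adjusted p = 0.235). KDM6A, an X-linked demethylase of the Polycomb mark, read 103, 107 and 116 with FP001, against 125, 149.6 and 129.9 on low attachment (-0.31 ± 0.10, adjusted p = 0.265). Its attachment values of 131 and 121 lay above all FP001 arrays and overlapped the low-attachment arrays.

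Some members are not protein-coding. KDM7A-DT, the divergent transcript beside KDM7A, read 43.6, 39.4 and 34.5 on low attachment and 31.3, 31.7 and 33.9 with FP001, against 32.1 and 24.7 on attachment. On low attachment it had the highest difference of all tested members (0.47 ± 0.15, adjusted p = 0.0668), which did not pass the test, and its FP001 arrays lay below its low-attachment arrays, as those of KDM7A did. KDM4A-AS1 and KMT2E-AS1 had log2 differences of -0.19 ± 0.12 and 0.09 ± 0.11 on low attachment. No source used here states whether the probes separate these transcripts from their neighbours on the opposite strand. The pseudogene BRD7P3 read under 6 on every array and was not tested, as were KDM4E (9.06 to 12) and HDAC9 (17.5 to 22.7).

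Other chromatin genes that the symbol rule does not reach were taken from 8 lists of complexes and pathways. Of 172 such genes 122 were tested. On low attachment 3 rose and 7 fell (8.20%), and with FP001 against attachment 6 rose and 16 fell (18.0%), beside 10.1% and 19.5% of all genes tested. No gene of these lists was called between FP001 and low attachment.

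JADE1, a scaffold of the acetyltransferase complex that holds KAT7, read 176, 222 and 222 on low attachment and 158, 195 and 199 with FP001, against 372 and 349 on attachment. It fell on low attachment (-0.81 ± 0.13, adjusted p = 0.00476) and with FP001 (-0.98 ± 0.13, adjusted p = 0.00115), while its relative JADE2 rose (0.40 ± 0.08 and 0.39 ± 0.08). MBD4, a DNA glycosylase that binds methylated DNA, read 106, 121 and 138 on low attachment and 127, 109 and 121 with FP001, against 208 and 199.9 on attachment. It was the one called gene of 9 in the DNA methylation list, in both comparisons (-0.75 ± 0.12 and -0.78 ± 0.12). In JADE1 and MBD4 all 6 low-attachment and FP001 arrays lay below both attachment arrays.

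Of 21 other methyltransferase and COMPASS genes, 3 fell on low attachment, and 2 rose and 3 fell with FP001. The methyltransferase NSD1 fell by 0.37 on low attachment and by 0.61 with FP001 on the log2 scale, RBBP5, a core subunit of the complexes that hold the KMT2 enzymes, by 0.48 and 0.51, and the arginine methyltransferase PRMT5 by 0.35 and 0.37. PRMT6 was called as higher with FP001 (0.56 ± 0.15, adjusted p = 0.029), but its attachment values of 18.0 and 18.5 lay below the array median, so it entered the test only through the arrays where it was high. Of 19 Polycomb genes, RBBP4 fell in both comparisons (-0.43 and -0.43), RING1 rose in both (0.38 and 0.32), and PCGF2 fell with FP001 (-0.33 ± 0.08). EZH2 and the other tested genes of that list were not called.

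Of 19 other remodellers and SWI/SNF partners, 1 rose and 1 fell on low attachment, and 1 rose and 4 fell with FP001. HLTF, a helicase-like translocase, fell in both (-0.56 ± 0.14 and -0.68 ± 0.14), and BCL7B, a SWI/SNF subunit, rose in both (0.39 ± 0.09 and 0.41 ± 0.09). ATRX and RSF1 fell with FP001 by 0.48 each on the log2 scale. Among 11 histone chaperones, ASF1B, which delivers new histones during replication, rose with FP001 (0.64 ± 0.11, adjusted p = 0.00303) and read 244, 255 and 246, against 145 and 175 on attachment. NAP1L1 and NASP fell with FP001 (-0.55 ± 0.13 and -0.52 ± 0.13). Of 20 sirtuins and deacetylase complex subunits, SIN3A and TBL1XR1 fell with FP001 by 0.37 each on the log2 scale. TRRAP, a scaffold of acetyltransferase complexes, fell with FP001 (-0.54 ± 0.16, adjusted p = 0.0425), and 0 of 6 other demethylase genes were called in either comparison with attachment.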

How the data were processed

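Per the labels' protocols, A549 total RNA was labelled with an Affymetrix kit for 3' in vitro transcription. The authors deposited a linear intensity for each probe set and array. The submitters' processing notes name MAS5 as the tool. No source used here gives its settings or version, and the values were taken as already scaled per array. The protocol belongs to arrays that read transcript ends, whereas the identifiers look like those of whole-transcript arrays, so which part of a transcript is read is uncertain.

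Gene names came from the platform annotation at GEO (16098 probe sets with 1 symbol, 37519 not named here), and all 16098 were matched by gene identifier to current RefSeq symbols (GRCh38.p14). No normalization or pseudocount was added before taking log2. Probe sets at or above the array median on at least 3 of the 8 arrays were kept (27942). With 2 attachment arrays, a probe set bright only there was dropped. The brightest probe set stood for a gene. Group means were fitted together with limma 3.58.1 in R 4.3.3 (lmFit, eBayes with a trend, 5 residual and 5.6 prior degrees of freedom). The two-sided p-values were adjusted by Benjamini-Hochberg over 10916 genes and called under 0.05. On simulated data with 200 of 10916 genes changed between low attachment and attachment, 89% of log2 changes of 1 and 37% of changes of 0.5 were recovered, with 3 false calls. The simulated noise was independent between genes and arrays, and fewer genes were changed than were called here in either comparison with attachment. These rates therefore need not hold for the fits above.

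The members, families and lists were chosen with earlier results of these data known. Members were named by rule: per comparison up to 12 largest called rises and falls, per family the most changed called member or else the one with the smallest adjusted p, and for FP001 against low attachment the 3 smallest adjusted p. Other members were added to account for the whole set. Of the other lists up to 3 called genes per list and comparison were named. Same-numbered arrays of FP001 and low attachment deviated together (correlations 0.483, 0.309 and 0.231 across genes). The main fit nevertheless held no term for the replicate number in any comparison. Pairing by number entered only the alternative fit blocked by replicate number. For attachment replicates 2 and 3 the correlations with same-numbered arrays were -0.205 and 0.138 (low attachment) and -0.256 and 0.00762 (FP001). With 2 arrays in a group, their deviations from its mean are equal and opposite. Their correlations with any other array then differ only in sign and cannot settle pairing, and no pairing was assumed.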

Additional observations from a re-analysis of the deposited data

How the results depend on the processing

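Each result was recomputed under 20 alternatives. The 2 attachment arrays limit what could be called. Leaving out 1 array at a time gave 0 to 7 called members for low attachment against attachment and 2 to 19 for FP001 against attachment. With every probe set tested on its own, 10 members were called for FP001 against attachment (13.7%, beside 13.9% of all probe sets). With all 9 arrays, attachment replicate 1 included, 0 members were called in any comparison and the median of all genes moved by about 0.70 on low attachment. There the log2 difference turned positive on low attachment for CHD2 (1.32), KDM1A (1.48) and KDM5B (0.090), and with FP001 against attachment for ARID5B (0.87), CHD2 (1.00), CHD9 (1.41), KDM1A (1.37), KDM3A (0.48), KDM7A (0.38), KMT2B (0.58) and KMT2D (0.89). With the replicate block, 5 members were called on low attachment, 21 with FP001 against attachment and 1 (KDM7A) with FP001 against low attachment. That block added KAT2A, KAT8 and KDM4A with FP001 against attachment, and called 142 genes in all between FP001 and low attachment, against 12 without it. It ended the calls of KAT5 on low attachment (adjusted p = 0.0576) and ARID3C with FP001 against attachment (0.0825). No other alternative turned the direction of a called, named member, and the cause of these shifts was not tested.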
